A study of Rattus norvegicus with 36 samples.

Results

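The nuclear genes for the subunits of mitochondrial complexes I to V were followed in rat liver across 5 doses of PBDE47. They were taken by symbol, as array probe sets that the platform annotation gives to a single gene named Ndufa, Ndufb, Ndufc, Ndufs, Ndufv, Sdha to Sdhd, Uqcr, Cyc1, Cox4 to Cox8, Atp5f1, Atp5p or Atp5m, with 1 probe set kept per gene. The rule used no difference between doses and found 90 of the 14217 genes with a probe set of their own. Of these, 79 were subunits (36 of complex I, 4 of complex II, 8 of complex III, 16 of complex IV and 15 of complex V). The symbol prefixes also took 10 assembly factors, proteins that help build a complex without remaining in it (6 named Ndufaf and 4 named Sdhaf), which were counted apart from the subunits. The last member was the pseudogene Cox6c-ps1. Ndufa4 was counted under complex I by its symbol, although its protein is now placed in complex IV.

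PBDE47 (2,2',4,4'-tetrabromodiphenyl ether) is a flame retardant. Male Harlan Sprague Dawley rats aged 7 weeks at the start received it by gavage in corn oil on 5 consecutive days, at a highest dose of 485 mg/kg or at 48.5, 4.85, 0.485 or 0.0485 mg/kg, and the control rats received corn oil alone. RNA came from the left liver lobe 1 day after the last dose, and each of the 6 groups had 6 rats, 1 array each, 36 arrays in all. The question was which liver transcripts differ from vehicle at each dose.

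Complexes I to IV pass electrons from NADH and succinate to oxygen, and complexes I, III and IV pump protons across the inner mitochondrial membrane. Complex V, the ATP synthase, uses that proton gradient to make ATP. Most subunits of these complexes come from nuclear genes and a few from mitochondrial DNA. Building all but complex II therefore needs both genomes, and each needs protein import and dedicated assembly factors. The promoters of many of the nuclear genes bind the transcription factors NRF1, GABP (a member of the ETS family) and YY1, and the coactivator PGC-1alpha is known for raising these genes together.

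Those factors have known binding sequences, and the promoters of the members hold the letters of those sequences more often than promoters at large. RefSeq promoters (GRCr8 build, 250 bases before to 50 after the start) were found for 81 of the 90 members and searched on both strands. The NRF1 sequence, searched as GCGC, any base and then TGCGC, was in 17 of the 81 (21%), beside 8.5% of 11701 promoters of genes on the array and 4.71% of all 27457 promoters in the table. CCGGAAG, the core that ETS factors bind, was in 25 (30.9%), beside 15% of the array genes' promoters and 9.22% of all promoters. AAGATGGC, the YY1 sequence, was in 17 (21%), beside 4.72% and 3.44% of the same promoter sets. At least 1 of these 3 sequences was in 48 member promoters (59.3%), beside 24.7% and 15.5%, and 10 member promoters held 2 or more of them. No matches of different sequences overlapped in a member promoter. TCAAGGTCA, the sequence of the estrogen-related receptor alpha (ERRA), was in 2 (2.47%), beside 0.214% and 0.412%, and TATAAA, the TATA box, was in 8 (9.88%), beside 8.46% and 14.3%. A match describes letters and not a bound site.

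**Figure D1:**
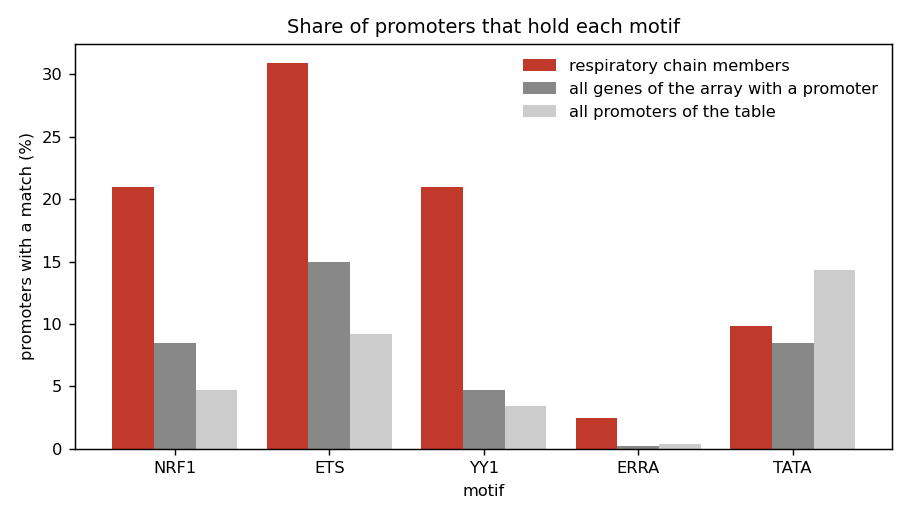
Percent of promoters (y axis) with at least 1 match of each searched sequence (x axis), for 81 respiratory chain members (red), 11701 promoters of genes on the array (dark grey) and all 27457 promoters of the RefSeq table (light grey). The member bar is the tallest for NRF1 (21%), ETS (30.9%), YY1 (21%) and ERRA (2.47%); for TATA the bar of all promoters (14.3%) is the tallest.

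The promoters printed here belong to 5 members that rose at the highest dose (Ndufs1, Atp5f1c, Ndufaf1, Sdhaf3 and Sdhaf4) and to Cox8a, which was not called at any dose. Each runs from 200 bases before the start to 30 after it, 5′ to 3′ on the gene's strand, in lower case, with matches of the NRF1, ETS or YY1 sequence on either strand in capitals.
Ndufs1, chr9:72073576-72073805, minus strand: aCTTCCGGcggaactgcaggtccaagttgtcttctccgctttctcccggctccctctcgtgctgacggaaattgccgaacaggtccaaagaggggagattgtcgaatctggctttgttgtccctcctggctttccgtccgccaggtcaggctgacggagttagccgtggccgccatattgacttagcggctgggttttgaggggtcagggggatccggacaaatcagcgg
Atp5f1c, chr17:73333485-73333714, plus strand: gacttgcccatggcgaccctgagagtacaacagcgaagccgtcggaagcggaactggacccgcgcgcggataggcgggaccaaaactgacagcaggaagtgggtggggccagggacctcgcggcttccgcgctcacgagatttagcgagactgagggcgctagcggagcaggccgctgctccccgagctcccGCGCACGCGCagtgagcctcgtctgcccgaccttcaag
Ndufaf1, chr3:127103991-127104220, minus strand: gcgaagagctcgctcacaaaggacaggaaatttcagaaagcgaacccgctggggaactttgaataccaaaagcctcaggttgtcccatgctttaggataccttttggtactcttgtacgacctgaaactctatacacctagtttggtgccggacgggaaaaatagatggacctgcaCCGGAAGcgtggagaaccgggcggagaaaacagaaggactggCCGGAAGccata
Sdhaf3, chr4:36066763-36066992, plus strand: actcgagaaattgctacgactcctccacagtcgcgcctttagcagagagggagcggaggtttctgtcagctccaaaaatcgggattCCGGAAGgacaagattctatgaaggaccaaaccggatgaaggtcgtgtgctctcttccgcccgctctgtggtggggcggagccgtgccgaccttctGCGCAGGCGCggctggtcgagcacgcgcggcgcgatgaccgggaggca
Sdhaf4, chr9:33912784-33913013, minus strand: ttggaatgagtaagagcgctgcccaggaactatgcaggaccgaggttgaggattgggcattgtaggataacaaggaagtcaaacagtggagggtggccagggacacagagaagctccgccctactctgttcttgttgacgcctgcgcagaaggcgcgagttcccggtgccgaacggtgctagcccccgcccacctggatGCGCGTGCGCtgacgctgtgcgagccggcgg
Cox8a, chr1:213833594-213833823, minus strand: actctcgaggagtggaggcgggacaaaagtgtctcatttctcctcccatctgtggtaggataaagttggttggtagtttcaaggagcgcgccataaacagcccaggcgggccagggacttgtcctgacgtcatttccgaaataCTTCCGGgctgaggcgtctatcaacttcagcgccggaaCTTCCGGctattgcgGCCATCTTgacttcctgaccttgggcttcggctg
The capitals mark 1 ETS match for Ndufs1, 1 NRF1 match for Atp5f1c and for Sdhaf4, 2 ETS matches for Ndufaf1, and 1 NRF1 and 1 ETS match for Sdhaf3. Cox8a had 2 ETS matches and 1 YY1 match. Over all members the first base of the YY1 matches lay at a median of 5 bases after the start, and the medians for NRF1 and ETS were -42 and -38 bases. Of the members with a promoter, 17 rose, 5 fell and 59 were not called at 485 mg/kg. The NRF1 sequence was in 5 of the 17, 0 of the 5 and 12 of the 59. The ETS sequence was in 4, 3 and 18 of them, and the YY1 sequence in 3, 2 and 12. These counts are a description without a test.

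Levels are log2 RMA values of single probe sets, so a difference of 1 is a doubling, and no gene's level is set against another gene's. Changes are log2 differences given ± their SE (limma's standard error; n = 6 rats per group), and a gene was called when its adjusted p was below 0.05 over 31042 probe sets. The labels do not say that rats of a group were kept or processed apart, so the p values measure the spread between these rats. Array medians lay between 5.31 and 5.38, and arrays of a group correlated at 0.990 to 0.997. The array of 4.85 mg/kg replicate 6 correlated least with its own group, and without it the same 25 members were called at 485 mg/kg. The counts without it were 4 for 48.5 mg/kg and 0 for 4.85 mg/kg. In bulk liver RNA, fewer cells of a type and less RNA per cell cannot be told apart. All comparisons with vehicle share the same 6 vehicle arrays.

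At the highest dose, 25 of the 90 members (27.8%) differed from vehicle, 20 higher and 5 lower, by small amounts. The background was 20.9% of all genes tested (11.5% higher and 9.43% lower), and 28.3% among the 9604 genes brighter than the median probe set, and all but 7 members had means above the lowest array median. The members' median change was 0.04, and the median size of change was 0.10, beside 0.11 for all genes. No member was called at the lower doses of 0.0485, 0.485 or 4.85 mg/kg, and 4 were called at 48.5 mg/kg. Of the 10 assembly factors, 6 rose and 1 fell at 485 mg/kg, and of the 79 subunits, 14 rose and 4 fell. The shares called there were 70% and 22.8%. By complex, the share of subunits called was 22.2% for I, 25% for II, 37.5% for III, 6.25% for IV and 33.3% for V. All of these stand beside the same 20.9% of all genes and 28.3% of brighter genes. The 79 subunits had a median change of 0.03 and the 10 assembly factors one of 0.30; the difference between these groups was not tested. The split between rises and falls moved with the scaling of the arrays: 16 higher and 9 lower after quantile normalization, and 22 higher and 1 lower after centring each array on its median. The subunit median was -0.01 and 0.04 under those scalings and so changed sign, and that of the assembly factors was 0.29 and 0.32.

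**Figure D2:**
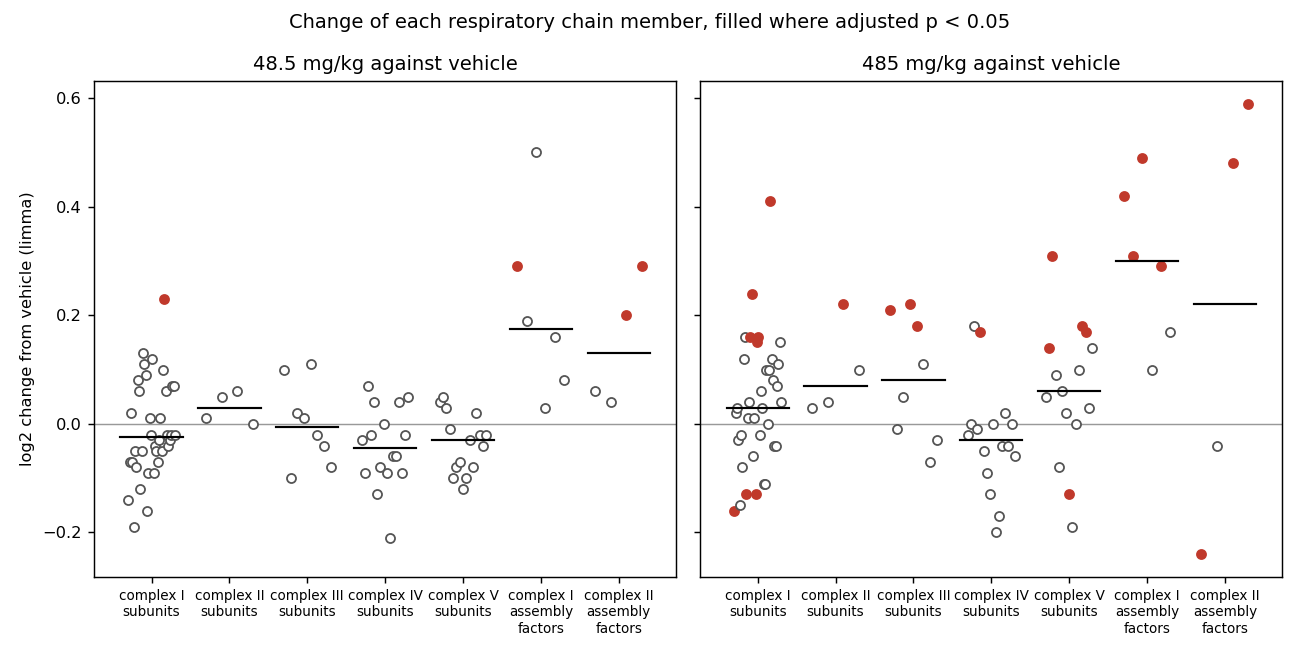
Change of each member on the log2 scale (y axis, limma estimate against vehicle) at 48.5 and 485 mg/kg, with subunits of complexes I to V and assembly factors in separate columns (the pseudogene is not drawn) and the median of each column as a black line. Filled points passed an adjusted p of 0.05: 4 at 48.5 mg/kg and 25 at 485 mg/kg, where the largest change is that of Sdhaf4 at 0.59 and the lowest that of Sdhaf1 at -0.24.

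In complex I, the entry point for electrons from NADH, 5 of 36 subunits rose and 3 fell at 485 mg/kg, with a median change of 0.03 (-0.02 after quantile normalization). Ndufs1 carries iron-sulfur clusters in the arm that takes up NADH's electrons. Its values in vehicle livers had a lowest of 10.45, a median of 10.55 and a highest of 10.75. At 485 mg/kg they had a lowest of 10.79, a median of 10.95 and a highest of 11.20. All 6 treated livers therefore lay above every vehicle liver, as did those of 11 members in all at this dose (counting both directions), beside a background of 11.0% of genes. Ndufs1 rose by 0.41 ± 0.05 (SE; 95% interval 0.30 to 0.51; adjusted p = 4.05e-07), a 1.32-fold difference. At 48.5 mg/kg the Ndufs1 values ran from 10.70 through a median of 10.76 to 10.91 and overlapped the vehicle range. The rise there was 0.23 ± 0.05 (adjusted p = 0.0101), and the value at 485 mg/kg exceeded that at 48.5 mg/kg by a further 0.18 ± 0.05 (adjusted p = 0.0444). At the lower doses the Ndufs1 group means were 10.64, 10.62 and 10.66, against 10.56 in vehicle.

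Ndufab1, the mitochondrial acyl carrier protein, which is both a complex I subunit and part of fatty acid synthesis in mitochondria, also rose without overlap. Its vehicle values ran from 11.88 through a median of 11.91 to 12.01, and those at 485 mg/kg from 12.11 through 12.17 to 12.21. The change was 0.24 ± 0.04 (adjusted p = 2.23e-05). Ndufa9, an accessory subunit near the quinone site, rose by 0.16 ± 0.04 (adjusted p = 0.0084). Ndufb3 and Ndufb2, accessory subunits of the membrane arm, rose by 0.16 ± 0.04 (adjusted p = 0.00888) and 0.15 ± 0.05 (adjusted p = 0.0279), in both cases with overlap between the groups.

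The 3 complex I subunits that fell are small accessory proteins. Ndufa6 ran from 12.17 through a median of 12.21 to 12.30 in vehicle livers and from 12 through 12.10 to 12.16 at 485 mg/kg. No treated liver reached the vehicle range, yet the difference was only -0.13 ± 0.04 (adjusted p = 0.031). Ndufa1 changed by -0.16 ± 0.05 (adjusted p = 0.016) and Ndufb11 by -0.13 ± 0.04 (adjusted p = 0.0392), both with overlap. After centring of each array on its median, Ndufa1 was still called (adjusted p = 0.0406), while Ndufa6 and Ndufb11 were not (adjusted p = 0.0873 and 0.0844).

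The other core subunits of complex I, those conserved from bacteria, were not called at 485 mg/kg. The changes were 0.12 for Ndufs3 (adjusted p = 0.1), -0.04 for Ndufs7, 0.07 for Ndufs8, 0.11 for Ndufv1 (adjusted p = 0.113) and 0.15 for Ndufv2 (adjusted p = 0.112). The 95% interval of Ndufv1, the subunit that binds NADH, ran from 0.02 to 0.20, and that of Ndufs7, which carries the last iron-sulfur cluster before the quinone, from -0.16 to 0.08. Ndufv3 gave different answers by probe set: the one kept by the rule changed by 0.04 (adjusted p = 0.767), while a second one, given to the same gene in the annotation, rose by 0.38 ± 0.07 (adjusted p = 0.000179).

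Complex II, succinate dehydrogenase, links the citric acid cycle to the chain and has all its subunits encoded in the nucleus. Sdhc, one of its membrane anchors, ran from 11.18 through a median of 11.32 to 11.41 in vehicle livers and from 11.39 through 11.55 to 11.63 at 485 mg/kg. The groups overlapped slightly, and the rise was 0.22 ± 0.05 (adjusted p = 0.00139). The catalytic subunit Sdha changed by 0.03 (95% interval -0.12 to 0.18), the iron-sulfur subunit Sdhb by 0.04 and the other anchor Sdhd by 0.10, and none of them was called.

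Of the 4 assembly factors of complex II, 2 rose and 1 fell at 485 mg/kg. Sdhaf4 assists the flavin-bearing Sdha and Sdhaf3 the iron-sulfur subunit Sdhb. Sdhaf4 ran from 8.56 through a median of 8.88 to 9.02 in vehicle livers, from 8.95 through 9.12 to 9.27 at 48.5 mg/kg and from 9.21 through 9.42 to 9.63 at 485 mg/kg. Only the highest dose cleared the vehicle range. The change was 0.29 ± 0.08 at 48.5 mg/kg (adjusted p = 0.0413) and 0.59 ± 0.08 at 485 mg/kg (adjusted p = 1.77e-06), a 1.50-fold difference and the largest among the members. Sdhaf3 ran from 8.63 through a median of 8.69 to 8.92 in vehicle livers, from 8.75 through 8.96 to 9.03 at 48.5 mg/kg and from 9.06 through 9.24 to 9.36 at 485 mg/kg. Every liver at 485 mg/kg lay above both other groups. Sdhaf3 rose by 0.20 ± 0.06 at 48.5 mg/kg (adjusted p = 0.0413) and by 0.48 ± 0.06 at 485 mg/kg (adjusted p = 5.34e-08). The step from 48.5 to 485 mg/kg was itself called for both, at 0.29 ± 0.08 for Sdhaf4 (adjusted p = 0.03) and 0.28 ± 0.06 for Sdhaf3 (adjusted p = 0.00148). Sdhaf1, another factor for the iron-sulfur subunit, went the other way at the highest dose. It ran from 8.92 through 9.09 to 9.19 in vehicle livers and from 8.68 through 8.77 to 9.06 at 485 mg/kg, with overlap, a difference of -0.24 ± 0.08 (adjusted p = 0.0283). After centring of the arrays the Sdhaf1 difference was -0.22 and not called (adjusted p = 0.0558). Sdhaf2, which attaches the flavin to Sdha, changed by -0.04 and was not called.

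Of the 6 complex I assembly factors, 4 rose at 485 mg/kg. Ndufaf1, an early chaperone of the membrane arm, ran from 6.74 through a median of 6.84 to 7.05 in vehicle livers and from 7.05 through 7.33 to 7.53 at 485 mg/kg. It rose by 0.29 ± 0.08 at 48.5 mg/kg (adjusted p = 0.0305) and 0.42 ± 0.08 at 485 mg/kg (adjusted p = 0.00012). Ndufaf4 and Ndufaf3, which act together in building the quinone module, rose by 0.49 ± 0.16 (adjusted p = 0.0373) and 0.31 ± 0.07 (adjusted p = 0.000852). The vehicle values of Ndufaf4 were wide, from 7.98 through 8.30 to 8.83, and overlapped those at 485 mg/kg, which ran from 8.44 through 8.79 to 9.36. Ndufaf7, a methyltransferase of the mitochondrial matrix, rose by 0.29 ± 0.07 without overlap (adjusted p = 0.00127), and its second probe set rose by 0.27 (adjusted p = 0.0231). Ndufaf5 and Ndufaf8 changed by 0.10 and 0.17 and were not called. Summarised per rat as the median difference of the 10 factors from the vehicle mean, vehicle livers lay between -0.07 and 0.10, livers at 48.5 mg/kg between 0.06 and 0.27 and livers at 485 mg/kg between 0.19 and 0.32. At 0.0485, 0.485 and 4.85 mg/kg the livers lay between -0.00 and 0.17, -0.04 and 0.12, and -0.04 and 0.10. The group medians at these lower doses were 0.07, 0.09 and 0.06, also above the vehicle median of -0.00, beside 0.14 at 48.5 mg/kg. The same summary over the 79 subunits gave -0.06 to 0.07 in vehicle and -0.00 to 0.09 at 485 mg/kg, so the ranges overlapped.

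**Figure D3:**
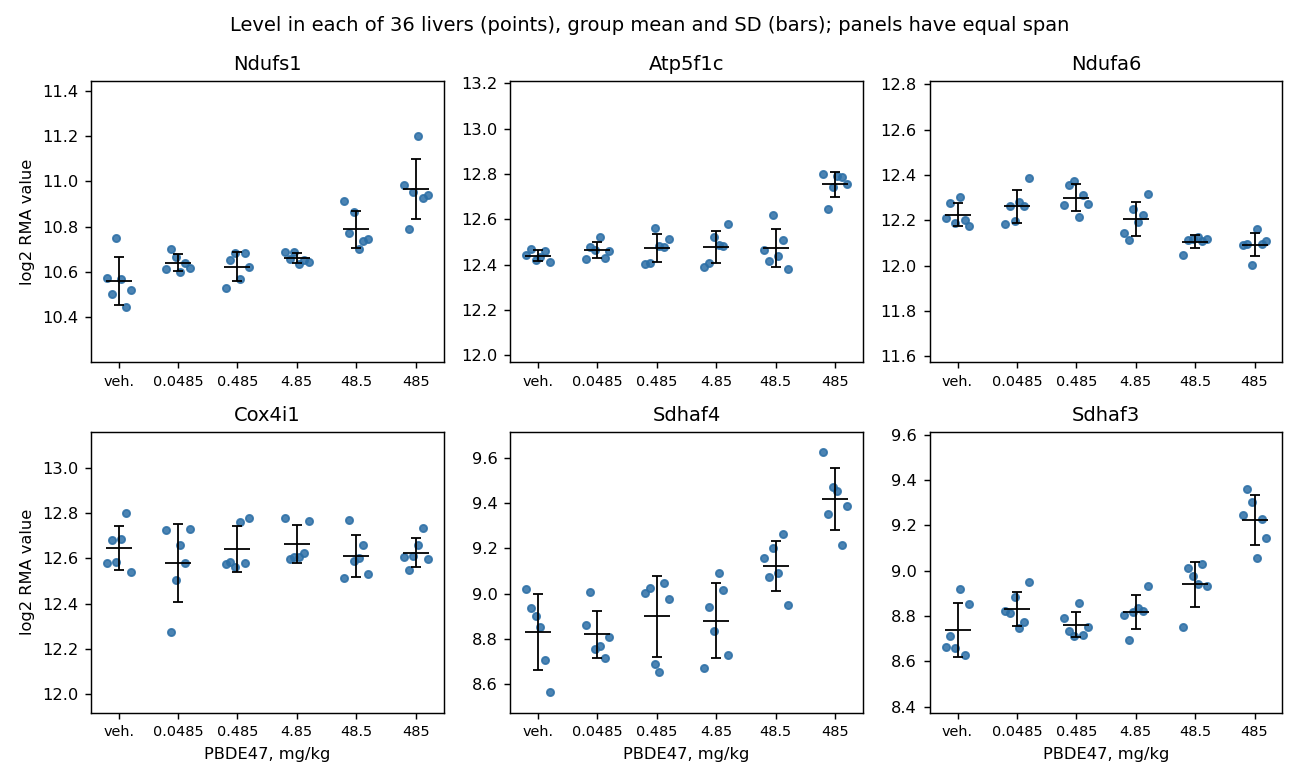
Log2 RMA value (y axis) of 6 members in each of 36 livers by dose group (x axis, mg/kg), as points with the group mean and SD as bars; each panel has its own axis of equal span. Ndufs1, Atp5f1c, Sdhaf4 and Sdhaf3 lie above all vehicle livers at 485 mg/kg, Ndufa6 lies below them, and Cox4i1 overlaps in every group.

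Complex III passes electrons from ubiquinol to cytochrome c. There, 3 of 8 subunits rose and 0 fell at 485 mg/kg, with a median change of 0.08 (0.04 after quantile normalization). Cyc1, the cytochrome c1 that hands electrons to cytochrome c, ran from 11.28 through a median of 11.35 to 11.40 in vehicle livers and from 11.49 through 11.53 to 11.68 at 485 mg/kg. The groups did not overlap, and the rise was 0.21 ± 0.04 (adjusted p = 0.000497). The core proteins Uqcrc1 and Uqcrc2, which frame the complex on its matrix side, rose by 0.22 ± 0.06 (adjusted p = 0.00463) and 0.18 ± 0.04 (adjusted p = 0.00131). Uqcrc2 did so without overlap, from a vehicle range of 11.58 to 11.68 to a range of 11.75 to 11.86, and its second probe set rose by 0.29 (adjusted p = 0.0245). Uqcrc1 was also higher at 485 than at 48.5 mg/kg, by 0.21 ± 0.06 (adjusted p = 0.0183). Uqcrfs1, the Rieske iron-sulfur protein, changed by 0.11 (adjusted p = 0.0663). The probe set shared by Uqcrb and Uqcrbl1, which the rule leaves out, rose by 0.15 ± 0.03 (adjusted p = 0.00137).

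Complex IV, cytochrome c oxidase, hands electrons to oxygen. Of its 16 subunits, 1 rose and 0 fell at 485 mg/kg, with a median change of -0.03. Cox6a1, the broadly expressed form of subunit VIa, ran from 12.09 through a median of 12.16 to 12.34 in vehicle livers and from 12.23 through 12.35 to 12.42 at 485 mg/kg. It rose by 0.17 ± 0.05 (adjusted p = 0.00925) with overlap between the groups. Cox4i1, the regulatory subunit that binds ATP, ran from 12.54 through a median of 12.63 to 12.80 in vehicle livers and from 12.55 through 12.61 to 12.73 at 485 mg/kg. Those ranges nearly coincide, and the difference was -0.02 (95% interval -0.15 to 0.11). Cox5b and Cox8a changed by -0.01 and 0.00 with narrow intervals (-0.10 to 0.09, and -0.08 to 0.08). Cox5a, a subunit on the matrix side, was imprecise: its vehicle values ran from 8.05 to 8.99, and the change of 0.18 had an interval of -0.20 to 0.57. The probe set it shares with LOC100361008 changed by 0.05 ± 0.04 and was not called. Cox6b1, Cox7a2l (a supercomplex factor related to subunit VIIa) and Ndufa4 changed by -0.09, -0.17 (adjusted p = 0.111) and -0.08 and were not called. After quantile normalization Cox6b1 and Cox7a2l were called lower (adjusted p = 0.0255 and 0.0198), which made the complex IV count 1 higher and 2 lower.

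Several paralogous forms of these subunits, muscle forms among them, were dim in liver. Ndufa4l2, Cox4i2, Cox6a2, Cox6b2, Cox7a1, Cox7b2 and Cox8b had means below the lowest array median of 5.31, and no member of that set was called at any dose. No detection call was made, so the changes of these genes are not exact. Cox7b2 is not on the paralog list, and its change is left out here. At 485 mg/kg the changes of the others were 0.12 for Ndufa4l2, 0.00 for Cox4i2, -0.05 for Cox6a2, -0.13 for Cox6b2, -0.20 for Cox7a1 (adjusted p = 0.0934) and -0.06 for Cox8b. None of these differences passed the test. The striated muscle markers, which would accompany muscle forms, were called lower in 1 of 8 cases (Atp2a1, -0.20) and higher in 0. All 8 also had means below the lowest array median, so these counts say little about muscle RNA. Cox7a2, Cox8c, Atp5mc1 and Atp5mc2 have no probe set of their own.

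In complex V, 4 of 15 subunits rose and 1 fell at 485 mg/kg, with a median change of 0.06 (3 and 2, with a median of 0.04, after quantile normalization). Atp5f1c, the gamma shaft that turns inside the catalytic head, had a tight vehicle range, from 12.41 through a median of 12.44 to 12.47. Its values ran from 12.38 through 12.45 to 12.62 at 48.5 mg/kg and from 12.65 through 12.77 to 12.80 at 485 mg/kg. Only the highest dose left the vehicle range altogether. The rise was 0.31 ± 0.04 (95% interval 0.23 to 0.40; adjusted p = 9.82e-07), a 1.24-fold difference, against 0.03 at 48.5 mg/kg (adjusted p = 0.796). The step from 48.5 to 485 mg/kg was 0.28 ± 0.04 (adjusted p = 3.39e-05). Atp5pb and Atp5pd, parts of the peripheral stalk that holds the head still, rose by 0.18 ± 0.04 (adjusted p = 0.0012) and 0.17 ± 0.04 (adjusted p = 0.00546). Atp5f1b, the catalytic beta subunit, rose by 0.14 ± 0.04 (adjusted p = 0.00901), from a vehicle range of 13.13 to 13.28 to a range of 13.29 to 13.41, without overlap. Its partner in the head, Atp5f1a, changed by 0.05 and was not called. Atp5mf, a small subunit of the membrane part, changed by -0.13 ± 0.05 (adjusted p = 0.0454), and after centring of the arrays by -0.11 (adjusted p = 0.0962). Atp5mc3, a gene for the ring that carries protons, changed by 0.06 against vehicle (not called) and was higher at 485 than at 48.5 mg/kg by 0.14 ± 0.04 (adjusted p = 0.0238).

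**Figure D4:**
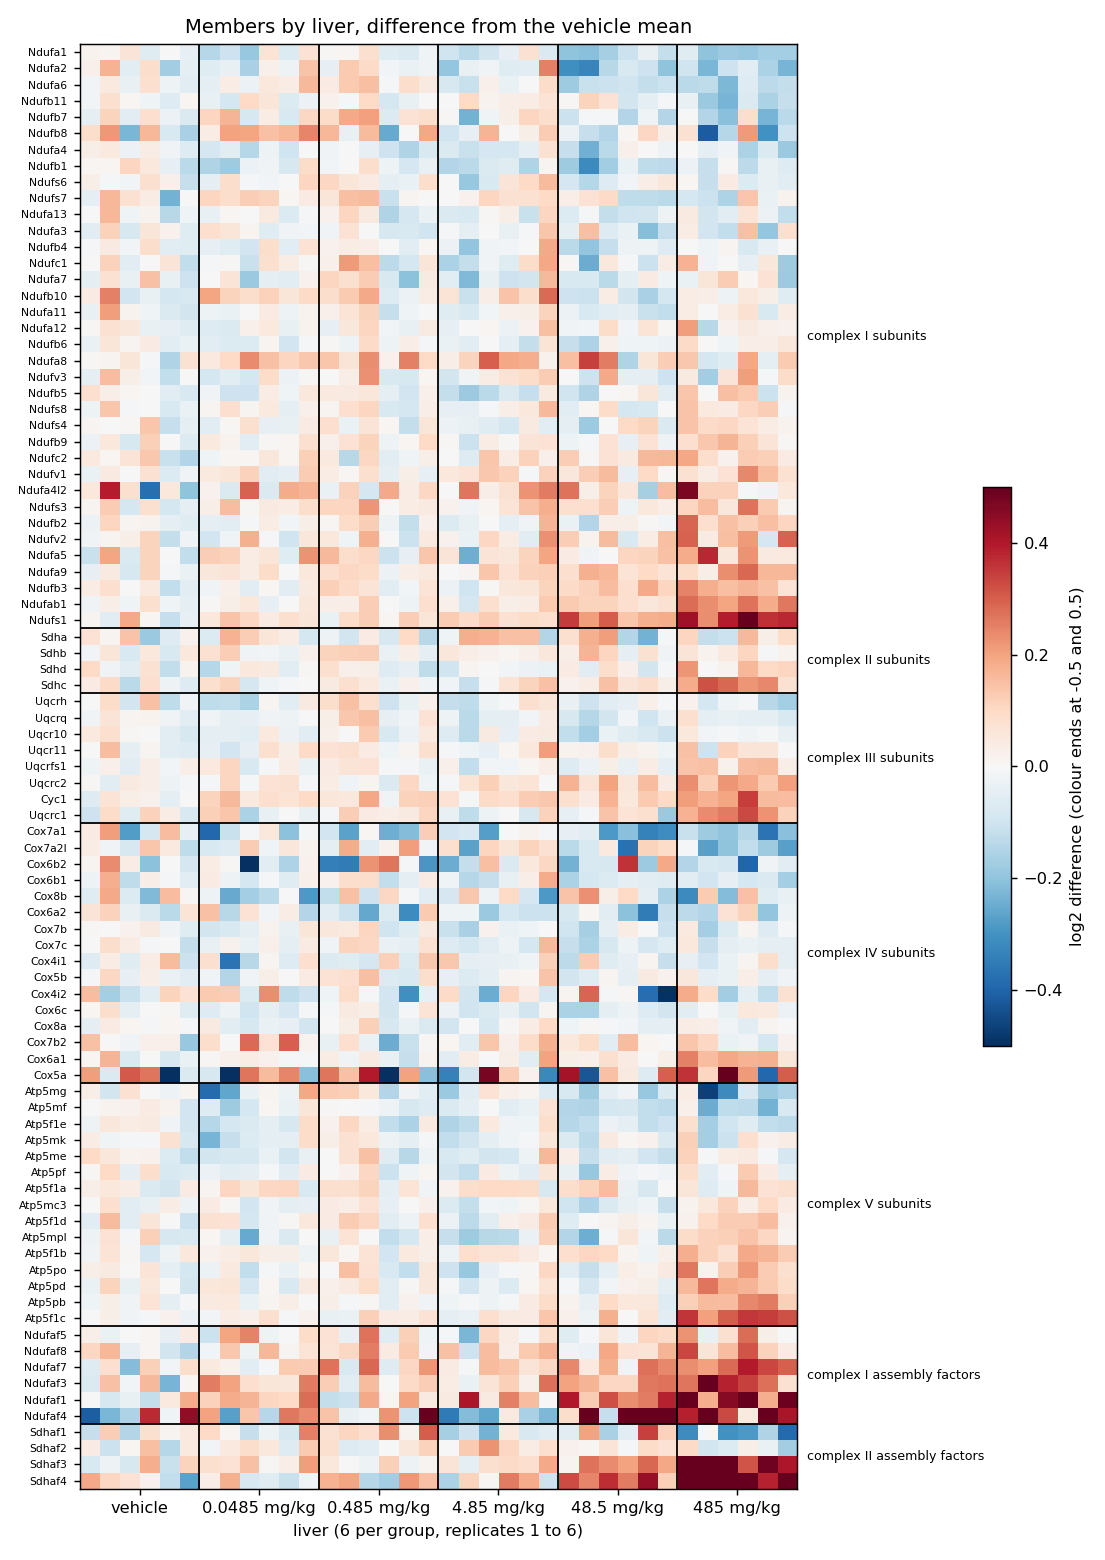
Difference of each of 89 members from its vehicle mean (colour, log2, ending at -0.5 and 0.5) in each of 36 livers (x axis, grouped by dose), ordered within complexes by the change at 485 mg/kg; the pseudogene is not drawn. At 485 mg/kg 14 subunits were higher and 4 lower by the test, and of the assembly factors 6 were higher and 1, Sdhaf1, was lower.

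The 20 measured genes of the list of catalytic and core subunits, taken across all complexes, had 7 higher and 0 lower calls at 485 mg/kg. That is 35% called, beside 20.9% of all genes and 28.3% of genes brighter than the median probe set. The median change of the 20 was 0.12 (0.08 after quantile normalization). The 7 were Ndufs1, Sdhc, Uqcrc1, Uqcrc2, Cyc1, Atp5f1b and Atp5f1c. The complex IV genes of this list, Cox4i1, Cox5a and Cox5b, are nuclear accessory subunits and not catalytic ones. The 13 measured genes with paralogous forms had 1 higher and 0 lower, with a median of -0.05, and after quantile normalization 1 higher and 2 lower. Of these 13, 6 had means below the lowest array median, beside 0 of the 20, so the 2 lists also differ in brightness. Of the 61 subunits not called, 51 had a 95% interval that lay wholly within a 1.2-fold change in either direction. Subunit values were steady between rats, with a median residual SD of 0.075 beside 0.138 for all genes, and a smaller spread lets smaller changes pass the test. Of the 25 calls at 485 mg/kg, 19 were kept whichever array was left out. The exceptions were mostly falls. Ndufa6 lost its call without vehicle replicate 2 or 4 or 485 mg/kg replicate 3 (adjusted p 0.0675 to 0.0909). Ndufb11 lost it without vehicle replicate 1, 2, 3 or 6 or 485 mg/kg replicate 2, 3 or 5 (0.0528 to 0.111), and Sdhaf1 without vehicle replicate 2, 4 or 6 or 485 mg/kg replicate 1, 3, 4 or 6 (0.0529 to 0.0759). Atp5mf, the weakest call, lost it without any 1 of vehicle replicates 1 to 5, of 485 mg/kg replicates 2 to 5 or of 3 arrays of other doses (0.050 to 0.132). Of the rises, Ndufb2 lost its call without vehicle replicate 1, 5 or 6 or 485 mg/kg replicate 1 (0.0546 to 0.0963), and Ndufaf4 without vehicle replicate 1, 2, 3 or 5 or 485 mg/kg replicate 2 or 5 (0.0609 to 0.122). After quantile normalization Ndufa9, Ndufb2, Sdhc and Atp5f1b were not called (adjusted p = 0.0786, 0.407, 0.0538 and 0.0723). When the test was required to exceed a 1.2-fold change, 2 members were called at 485 mg/kg, Sdhaf3 and Sdhaf4.

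**Figure D5:**
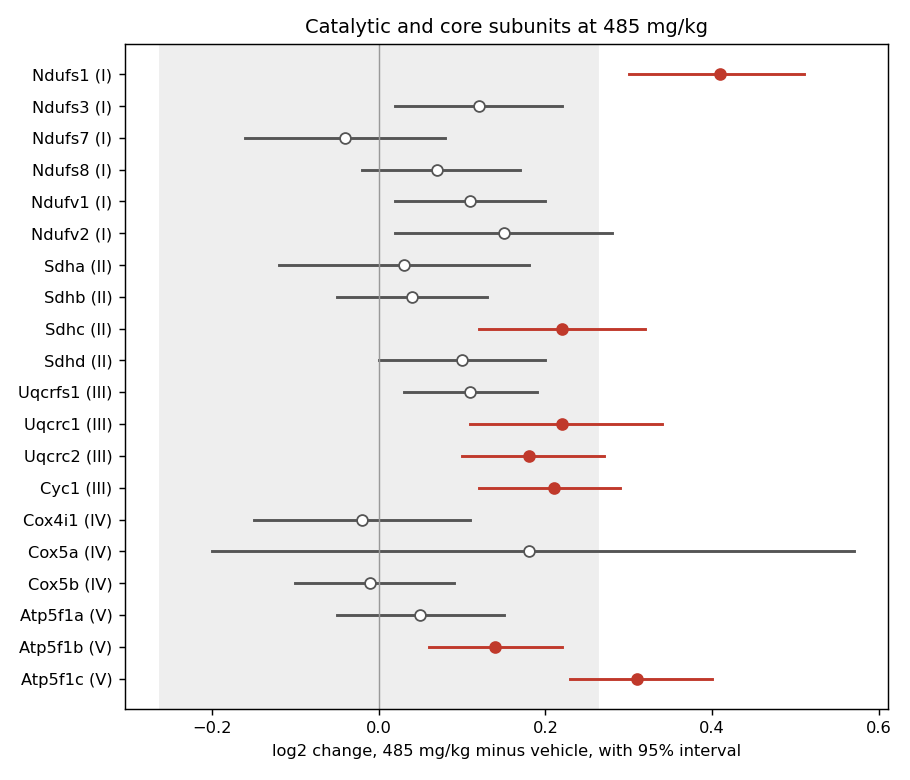
Log2 change at 485 mg/kg against vehicle (x axis, points) with its 95% interval (bars) for the 20 measured genes of the list of catalytic and core subunits (y axis, complex in brackets). Those of complex IV are accessory subunits. Red marks called genes and the grey band a change within 1.2-fold. The intervals of Ndufs1 (0.30 to 0.51) and Atp5f1c (0.23 to 0.40) lie farthest to the right, and that of Cox5a (-0.20 to 0.57) is the widest.

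At 48.5 mg/kg, 4 of 90 members rose and 0 fell (4.44%), beside a background of 5.11% (4.03% higher and 1.08% lower). The 4 were Ndufs1, Ndufaf1, Sdhaf3 and Sdhaf4, all of which also rose at 485 mg/kg. The median over all members was -0.02, and 21 members had an unadjusted p below 0.05. The count was 1 without vehicle replicate 3 or without 48.5 mg/kg replicate 5. It was 2 without any 1 of vehicle replicates 1, 2, 4 and 5 or of 48.5 mg/kg replicates 2, 3 and 6. Ndufs1 was called whichever single rat was left out, but not in a fit of the 12 arrays alone (adjusted p = 0.08). Ndufaf1, Sdhaf3 and Sdhaf4 lost their calls after quantile normalization, under which 1 member was higher and 1 lower, and each of the 3 also lost its call without any 1 of 8 or 9 of the 12 rats compared (adjusted p at most 0.118). Ndufaf4 had a value of 0.50 at this dose but was not called (adjusted p = 0.0856). The 6 livers lay wholly outside the vehicle range for 2 members, Ndufa6 and Ndufb3, beside 3.21% of all genes, and neither was called.

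Between the upper doses, 485 against 48.5 mg/kg, 10 members were higher and 1 lower (12.2%), beside a background of 7.22% (4.03% higher and 3.19% lower). The members' median difference was 0.06, with 70 values above 0 and 20 below. The 8 subunits called, all higher, were Ndufs1, Ndufab1, Ndufb2, Uqcrc1, Atp5f1c, Atp5pb, Atp5pd and Atp5mc3, which puts 4 of the 8 in the ATP synthase. Ndufb2 differed by 0.17 ± 0.05 (adjusted p = 0.0282) and Atp5pd by 0.18 ± 0.04 (adjusted p = 0.00646). The per-rat medians of complex V lay between -0.12 and -0.00 at 48.5 mg/kg and between 0.02 and 0.13 at 485 mg/kg, as differences from the vehicle mean, and did not overlap. Those of vehicle livers lay between -0.08 and 0.06 and overlapped both dose groups. For complexes I to IV the ranges at 48.5 and 485 mg/kg overlapped. Sdhaf1 was the member called lower, at -0.31 ± 0.08 (adjusted p = 0.0124). Without 48.5 mg/kg replicate 2 or 6, 7 members were called. With every single array left out in turn, 4 of the 11 calls were kept throughout (Atp5f1c, Atp5pb, Atp5pd and Sdhaf3), while that of Ndufs1 was lost in 9 cases and that of Sdhaf4 in 6, with an adjusted p of at most 0.149.

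At 0.0485, 0.485 and 4.85 mg/kg limma called 0 members, beside backgrounds of 0%, 0% and 0.0352%. At an unadjusted p below 0.05 there were 4, 0 and 1 members, and the changes ran from -0.14 to 0.16, from -0.11 to 0.14 and from -0.19 to 0.15. The count was 0 under each alternative and with each rat left out. The 4 at the lowest dose were Cyc1 (0.09), Cox7b2 (0.13), Ndufaf1 (0.16) and Ndufaf3 (0.15), each with an adjusted p of 1.00, and the 1 at 4.85 mg/kg was Ndufa8 (0.14, adjusted p = 0.759). Over the 5 doses together, the moderated F test called 19 of 90 members, beside 18.3% of all genes; these were 12 subunits and 7 assembly factors.

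Genes that work beside the complexes were counted in the same way at 485 mg/kg, where all genes had a median change of -0.01. The background at that dose was 20.9% of all genes called (11.5% higher and 9.43% lower). Among genes brighter than the median probe set it was 28.3%. Of 33 other assembly factors, 14 rose and 0 fell, with a median of 0.14. Acad9, an acyl-CoA dehydrogenase that also serves complex I assembly, rose by 0.94 ± 0.06 (adjusted p = 8.04e-15), from a vehicle mean of 9.77 to 10.71, and by 0.53 ± 0.06 at 48.5 mg/kg (adjusted p = 8.83e-08). Lyrm7, a chaperone of the Rieske protein, rose by 0.50 ± 0.14 (adjusted p = 0.012) from a dim level, with means of 4.30 and 4.80. Among 14 genes for electron carriers and for exchange across the mitochondrial membranes, 8 rose and 0 fell. Atp5if1, the inhibitor that stops the ATP synthase from running backwards, rose by 0.74 ± 0.07 (adjusted p = 7.01e-11), and Vdac3, an outer membrane channel, by 0.34 ± 0.05 (adjusted p = 3.97e-07). The size for Atp5if1 depended on the processing: under the alternatives but the minimum change it ran from 0.31 to 0.77, called each time. Of 12 genes for coenzyme Q synthesis, 8 rose and 0 fell, with a median of 0.25, among them Coq5 (0.60 ± 0.18, adjusted p = 0.0192) and Coq6 (0.46 ± 0.06, adjusted p = 2.25e-07).

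The citric acid cycle and pyruvate dehydrogenase genes, which supply the chain with NADH and succinate, had the highest share of these lists, with 11 of 15 higher, 0 lower and a median of 0.32. At 48.5 mg/kg 6 of the 15 were higher, with a median of 0.16, beside 4.03% of all genes higher. Idh2, which makes NADPH in mitochondria, rose by 0.62 ± 0.07 (adjusted p = 7.5e-09), and Pdhx, a structural part of pyruvate dehydrogenase, by 0.55 ± 0.09 (adjusted p = 1.33e-05). Of 16 protein import genes, 5 rose and 0 fell (31.25% called), near the 28.3% called among genes brighter than the median probe set. The rises were led by Tomm5 (0.48 ± 0.07, adjusted p = 1.75e-06) and Timm44 (0.40 ± 0.08, adjusted p = 0.000132). Under the alternatives but the minimum change, the Timm44 value ran from 0.16 to 0.43 and stayed called. Of 18 regulators of mitochondrial gene expression, 3 rose and 1 fell, with a median of 0.03. That share (22.2%) was near the 20.9% of all genes. Tfb2m, which opens mitochondrial promoters for transcription, and Ssbp1, which coats single-stranded mitochondrial DNA, rose by 0.36 ± 0.06 (adjusted p = 1.27e-05) and 0.33 ± 0.06 (adjusted p = 2.27e-05). Polg, the catalytic subunit of the mitochondrial DNA polymerase, changed by -0.28 ± 0.08 (adjusted p = 0.0156). The lists of assembly factors, carriers, coenzyme Q synthesis, citric acid cycle and import genes kept a positive median and 0 falls under both other scalings.

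Some markers of liver cell types moved at the same dose, where 9.43% of all genes were called lower and 11.5% higher. Albumin, the defining hepatocyte transcript, was at 15.06 in vehicle and 15.05 at 485 mg/kg. Of 8 hepatocyte markers, 5 fell and 0 rose (median -0.25), of 7 Kupffer cell markers 4 fell (median -0.40), and of 4 sinusoidal endothelial markers 2 fell (median -0.24). Stellate cell markers had 0 of 8 called (median -0.09), and of 9 markers of T and NK cells 2 were lower (median -0.11). Of 5 cholangiocyte markers 1 rose, Epcam at 0.60, while the other 4 had values below 0 and were not called (median -0.12). Of 4 erythroid markers 3 fell (median -0.66). Of 4 brown fat markers, Cidea rose by 1.64 ± 0.30 (adjusted p = 0.000118), while Ucp1, which defines that tissue, changed by 0.12 and was not called, with means of 4.20 and 4.33. Means below the lowest array median of 5.31 limit several of these lists. They were found for 8 of the 9 T and NK cell markers and 3 of the 4 brown fat markers. The same held for 2 of the 5 cholangiocyte and 2 of the 4 erythroid markers. The part of the marker shifts in the members' changes was not tested.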

How the data were processed

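The deposited table holds log2 values that the authors made with RMA in the R package affy, per the submitters' processing notes; versions are not given in the sources used here. RMA subtracts background, quantile normalizes probes and summarizes probe sets, which forces arrays to a shared distribution and limits absolute shifts. Gene names come from the platform annotation: of 31042 probe sets tested, 20826 had 1 gene, 436 several and 9780 none, and 57 controls were left out. Per gene, the brightest probe set by its mean was kept; the second probe sets named were chosen after their values were seen.

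One linear model with 6 groups and 36 arrays (limma 3.58.1, R 4.3.3) gave 2-sided contrasts and Benjamini-Hochberg adjusted p values over all probe sets, with no filter on level. Arrays have no depth; 6 per group limit the precision. The members, lists, tests and alternatives were chosen with earlier results of these data known. Named were the core and paralog lists, the most changed called members of each complex and at most 2 called genes per direction of each pathway list. Ndufv3, Sdhaf2, the other Ndufaf genes beside Ndufaf4, the markers named and the members at an unadjusted p below 0.05 were added after their values were seen. In data simulated for 485 mg/kg against vehicle (31042 probe sets, 50 changed per size), 2% of log2 changes of 0.15, 24% of 0.25, 78% of 0.5 and 98% of 1 were called. The changed probe sets were drawn at random, and 108 were called in all. In the data 20.9% of genes were called, which makes the adjusted p threshold less strict. The subunits also varied less (median residual SD 0.075 beside 0.138 for all genes). These shares therefore do not describe the members. Promoter sequences are RefSeq's (GRCr8).

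The study named R/maanova for its own tests; the ordinary test without moderation stood in for it as an alternative.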

Additional observations from a re-analysis of the deposited data

Results flagged for a closer look

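Single livers lay far from the other 5 of their group, by Dixon's ratio, in 21 of 276 groups checked over 46 named members. Chance gives about 5% of groups.

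Among members called at 485 mg/kg, the 485 mg/kg values apart were Cyc1 in replicate 4 at 11.68 (the others 11.49 to 11.55), Atp5f1c in replicate 2 at 12.65 (the others 12.74 to 12.80), Ndufb2 in replicate 1 at 11.76 (the others 11.55 to 11.62) and Ndufa1 in replicate 1 at 12.25 (the others 12.11 to 12.14). Atp5f1c at 12.65 still lay above every vehicle liver. The low value of Sdhaf3 in 48.5 mg/kg replicate 1 was 8.75 (the others 8.93 to 9.03), and those of Ndufa6 and Cox6b1 in the same rat were 12.05 and 11.58, below the others' lowest values of 12.11 and 11.65.

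In vehicle rats, replicate 2 was high for Ndufs8 at 10.53 and for Cox6a1 at 12.34, and replicate 6 was low for Atp5mf at 12.03. The rat of 4.85 mg/kg replicate 6 was high for Ndufa4 at 12.93, Cox6a1 at 12.37 and Ndufb2 at 11.64, and the array of that rat correlated least with its own group. Replicate 2 of that dose was low for Uqcrfs1 at 12 and for Cox7a2l at 10.56 (the others 10.88 to 10.94). At the lowest doses, Cox5b was low at 12.06 in 0.0485 mg/kg replicate 2 and Atp5f1b at 13.12 in 0.485 mg/kg replicate 4. Of the dim forms, Ndufa4l2 was high at 4.30 in 485 mg/kg replicate 1, Cox7a1 was low at 4.36 in 485 mg/kg replicate 5, and Cox6b2 was low at 3.36 in 0.0485 mg/kg replicate 3 and at 3.46 in 485 mg/kg replicate 4.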

How the results depend on the processing

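No called member reversed its direction. At 0.0485, 0.485 and 4.85 mg/kg 0 members were called under every alternative. The 4 calls at 48.5 mg/kg became 2 after quantile normalization, 7 among brighter probe sets, 8 in the ordinary test, 1 with the 12 arrays compared and 0 with a minimum change of 1.2-fold. The 25 at 485 mg/kg became 15 with 12 arrays and 2 with the minimum change. The 11 between the upper doses became 17 among brighter probe sets, 17 with trend and robust settings, 17 with a gene's probe sets averaged, 19 in the ordinary test, 3 with 12 arrays and 0 with the minimum change. Leaving out single rats gave 1 to 5 calls at 48.5 mg/kg, 22 to 26 at 485 mg/kg, 7 to 13 between the upper doses and 15 to 22 in the F test. The samples share only a replicate number: deviations of same-numbered rats correlated at -0.18 to 0.23 (median 0.01), and 12 of 36 arrays matched their own number best. Of 90 same-number pairs, 19 correlated above 0.1. Whether these counts exceed those of unrelated rats was not tested. A replicate block gave 3, 25 and 10 calls at 48.5 mg/kg, 485 mg/kg and between them, and 18 in the F test. On the forward strand alone, 10 member promoters held the NRF1 letters, 12 ETS, 15 YY1, 0 ERRA and 4 TATA. Members and pathway list genes named here had 47 calls at 48.5 or 485 mg/kg. Of these, 23 were kept under all alternatives but the minimum change. The calls of Ndufs1, Sdhaf3 and Sdhaf4 at 48.5 mg/kg were not among those kept. Of 71 named values not called, 57 were never called. Dim probe sets and the small size of the changes limit what 6 arrays per group resolve.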

Other observations

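Probe sets that the annotation gives to a member's gene and to a near-identical copy stayed outside the 90 members. At 485 mg/kg, the probe set of Atp5mc1 and Atp5mc1l1, genes for the proton-carrying ring of the ATP synthase, changed by 0.17 ± 0.06 (adjusted p = 0.050). Those of Cox7a2 with Cox7a2l2 and of Atp5mc2 with Atp5mc2l1 changed by -0.00 and 0.00, that of Ndufs5 with Ndufs5-ps2 by 0.11 and that of Ndufa10 with Ndufa10l1 by 0.09, and limma called none of these. A signal from the copy and one from the named gene cannot be told apart on them.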
